A study of Mus musculus with 2 samples.

Results

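The genes described here are 9 imprinted genes chosen by symbol: Meg3, Rian, H19, Cdkn1c, Grb10, Gnas, Ndn, Impact and Igf2r. They were chosen with earlier results of these data known. A row with the symbol was found for 8 of the 9 among the 31053 genes counted. Rian is not analysed here. Their counts were read in 2 droplet single-cell RNA libraries of mouse bone marrow, both labelled as HSCs. The naive library came from wild-type C57BL/6J mice with no treatment. The Listeria library came from wild-type C57BL/6J mice 6 weeks after a challenge with the bacterium Listeria monocytogenes. The mice were 6 to 8 weeks old by the extraction protocol. Whether that age was at challenge or at harvest is not settled by these values, so ages at harvest may differ. The number of mice pooled and the sort that gave the HSCs are not given in the sources used here. The names of the deposited matrices carry marks for wild type and knockout although the labels give wild type for both. A difference between the libraries thus cannot be told apart from a difference of genotype, of age, of mice or of library. With 1 library per group there is no replicate check and no test between groups. Each value stands for its library.

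An imprinted gene is read mainly from the copy inherited from a single parent, and the choice is kept by DNA methylation laid down in the egg or the sperm. Meg3, Rian, H19, Cdkn1c, Grb10 and Igf2r are known as maternally expressed in most mouse tissues, Ndn and Impact as paternally expressed, and Gnas uses the maternal copy only in some tissues. Several of these genes restrain growth or cell division, and a group that includes Meg3, H19 and Cdkn1c is known for high levels in quiescent hematopoietic stem cells (HSCs), the marrow cells from which all blood lineages arise. The libraries hold RNA from an inbred strain, so parental copies cannot be told apart here, and a level says nothing about imprinting itself.

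The promoters of 4 members that were higher in HSC-gated than in multipotent cells in both libraries are shown because imprinting marks are methyl groups on CG pairs. Each is 300 bases, 250 before to 50 after a start site, from RefSeq on GRCm38.p6 and written 5′ to 3′ on the gene's strand. Capitals mark CG pairs. The windows were taken by start site, not as regions known to hold an imprint, and methylation was not measured.
Meg3, chr12:109540746-109541045, plus strand: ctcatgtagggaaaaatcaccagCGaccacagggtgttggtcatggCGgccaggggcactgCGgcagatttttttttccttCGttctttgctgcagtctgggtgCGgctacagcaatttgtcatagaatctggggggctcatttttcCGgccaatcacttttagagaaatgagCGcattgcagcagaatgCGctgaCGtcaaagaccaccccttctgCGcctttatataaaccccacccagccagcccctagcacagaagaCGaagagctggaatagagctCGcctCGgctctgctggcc
Grb10, chr11:12037371-12037670, minus strand: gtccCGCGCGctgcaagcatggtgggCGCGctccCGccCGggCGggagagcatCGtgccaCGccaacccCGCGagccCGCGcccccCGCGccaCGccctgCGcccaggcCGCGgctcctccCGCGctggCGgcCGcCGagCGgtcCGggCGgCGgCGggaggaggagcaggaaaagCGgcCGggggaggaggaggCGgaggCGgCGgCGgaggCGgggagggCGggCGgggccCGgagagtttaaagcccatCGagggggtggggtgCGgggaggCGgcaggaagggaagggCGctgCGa
Ndn, chr7:62348027-62348326, plus strand: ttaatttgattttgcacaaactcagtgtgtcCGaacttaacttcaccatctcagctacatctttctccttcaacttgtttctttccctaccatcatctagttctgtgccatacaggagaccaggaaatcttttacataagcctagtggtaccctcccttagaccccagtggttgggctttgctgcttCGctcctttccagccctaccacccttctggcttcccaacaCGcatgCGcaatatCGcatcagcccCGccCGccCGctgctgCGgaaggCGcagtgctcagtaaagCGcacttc
Igf2r, chr17:12769657-12769956, minus strand: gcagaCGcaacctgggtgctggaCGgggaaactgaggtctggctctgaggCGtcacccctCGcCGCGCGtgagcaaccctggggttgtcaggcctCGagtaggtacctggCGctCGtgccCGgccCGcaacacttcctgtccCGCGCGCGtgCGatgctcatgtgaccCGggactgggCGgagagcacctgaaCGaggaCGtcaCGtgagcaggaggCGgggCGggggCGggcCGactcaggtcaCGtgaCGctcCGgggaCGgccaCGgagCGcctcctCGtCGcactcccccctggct
The Grb10 window holds 45 CG pairs and the Igf2r window 34, against a median of 7 over 32851 promoters of the same length. The Meg3 window holds 13 and the Ndn window 11, and 62.1% and 58.6% of all promoters hold fewer. The letters TGCCGC, searched on both strands because they form the core recognised by the imprint-keeping protein ZFP57 when methylated, occur once in the Meg3 and once in the Grb10 window, in none of the other windows shown here, and in 11.6% of all promoters. Grb10 and Meg3 have a second RefSeq start site each, whose windows hold 9 CG pairs and 1 and no TGCCGC; the window with more CG pairs is shown. Entries were found for 5 of the 8 measured members, the other being Gnas with 4 start sites that hold 16 to 40 CG pairs. H19, Cdkn1c and Impact had no entry.

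Cells were barcodes with at least 2500 unique molecular identifiers (UMIs, one for each captured RNA molecule), at least 500 genes and at most 10% mitochondrial UMIs. This left 6375 naive and 4839 Listeria cells with median depths of 6972 and 7239 UMIs, and 14 of their barcodes occurred in both libraries. Cells were sorted by marker genes, none of them a member. The HSC gate asked for at least 4 UMIs from at least 3 of 12 HSC markers (such as Procr, Hlf, Mecom and Slamf1), more than from the 6 multipotent markers (such as Cd34, Flt3 and Cd48), the multipotent gate asked for the reverse, and a lineage gate for at least 10 UMIs from at least 3 markers of a lineage. The HSC gate held 1635 naive and 1515 Listeria cells, the multipotent gate 964 and 709, the 9 lineage gates 2081 and 998, and 1695 and 1617 cells passed no gate. Although the labels call both libraries HSCs, 1408 naive and 396 Listeria cells passed the B-lineage gate. Levels below are UMIs per 1000000 UMIs of the group (CPM). Within 1 UMI of the HSC threshold, 161 naive and 159 Listeria cells stood just inside it and 76 and 86 just outside. Of 9 stromal markers, Col3a1, Dcn and Lum were at 0 in HSC-gated cells of both libraries, and Pdgfrb had the most UMIs, 83 and 51. Of 6 endothelial markers, all had some UMIs and Egfl7 carried most, 71.4 and 56.8 CPM. Between the naive and the Listeria gate Cldn5 went from 57 to 9 UMIs (4.70 and 0.78 CPM), Cdh5 from 9 to 1 and the 6 endothelial markers together from 82.8 to 61.7 CPM. The part of either cell type in the results was not tested.

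HSC-gated cells carried more RNA of 5 of the 7 members that could be compared than multipotent cells did, in each library. The 5 were Meg3, Ndn, Grb10, Cdkn1c and Igf2r, and the log2 differences ran from 1.30 for Igf2r to 3.32 for Meg3 in the naive library and from 1.88 for Cdkn1c to 4.58 for Meg3 in the Listeria library. Gnas and Impact did not pass in either library. Here and below, a gene could be compared when both groups together held at least 100 UMIs, and it passed when the ratio of CPM was at least 1.5-fold and its exact 95% interval from the split of the counts stayed on 1 side of equality. By that rule 9.27% of 9374 genes were higher in HSC-gated than in multipotent cells of the naive library and 8.6% of 9190 in the Listeria library, and 5.62% and 3.46% were lower. The members were chosen with earlier results of these data known. Their count beside the share of all genes, in this and later comparisons, is therefore a description and not a test. Intervals cover counting error only and not the spread between mice or, for a gene whose UMIs sit in few cells, between cells.

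**Figure D1:**
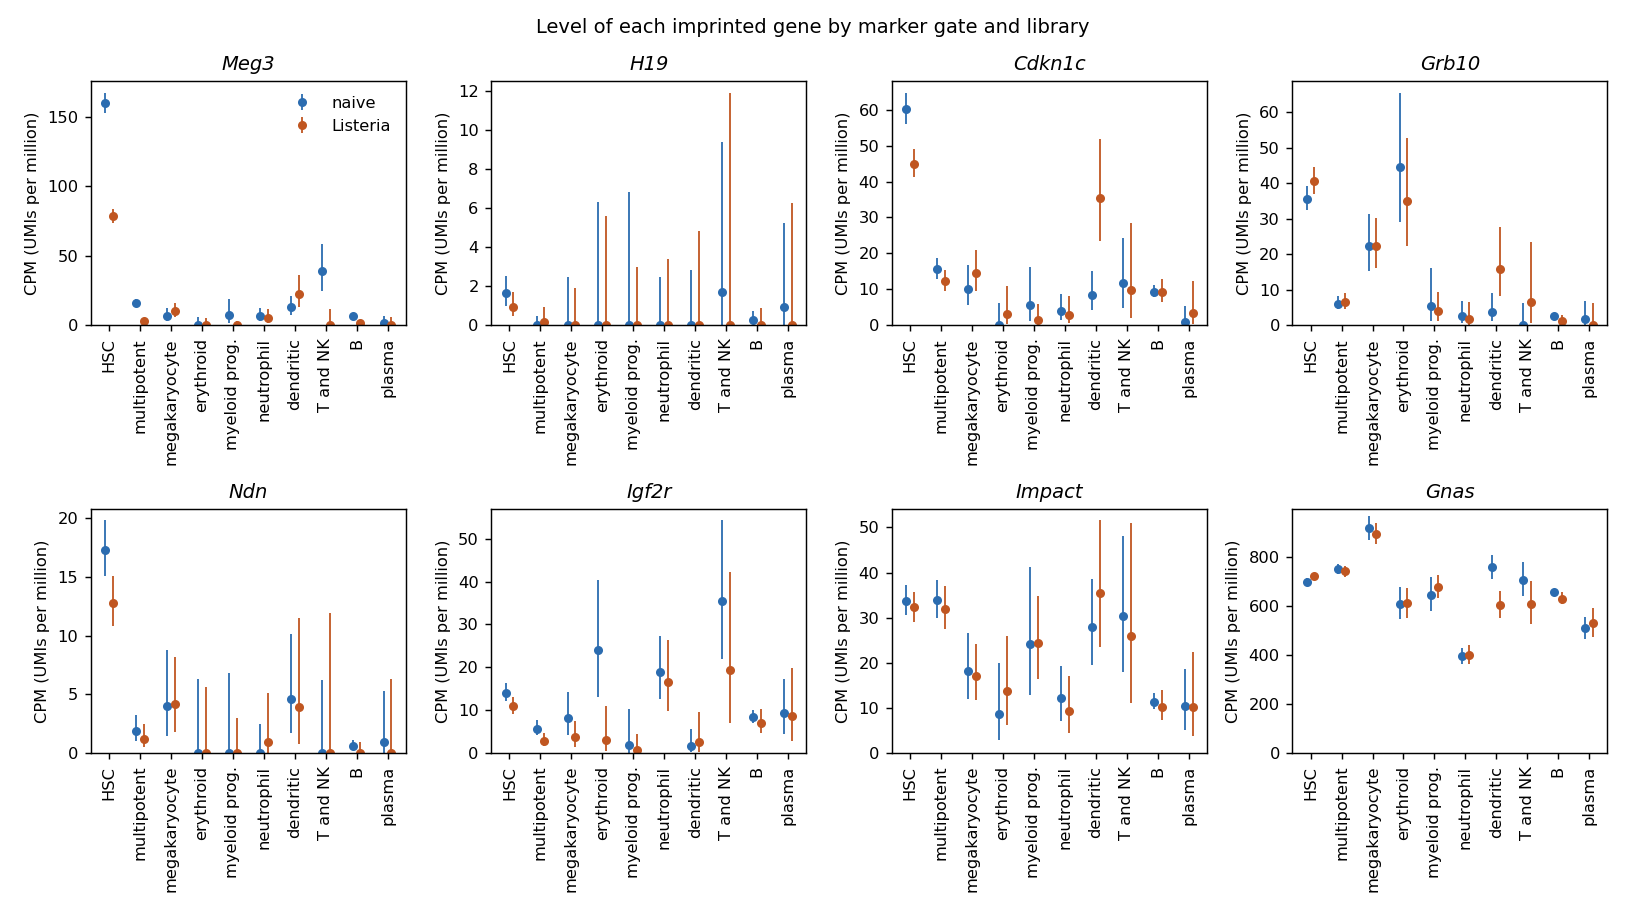
Level of each of the 8 measured imprinted genes in CPM (y axes, from 0) in each marker gate with at least 30 cells (x axes), for the naive and the Listeria library. Points are summed counts as CPM and bars exact 95% Poisson intervals; Meg3, Cdkn1c and Ndn stand highest in the HSC gate of both libraries, while Gnas stays between 395 and 915 in all gates.

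**Figure D2:**
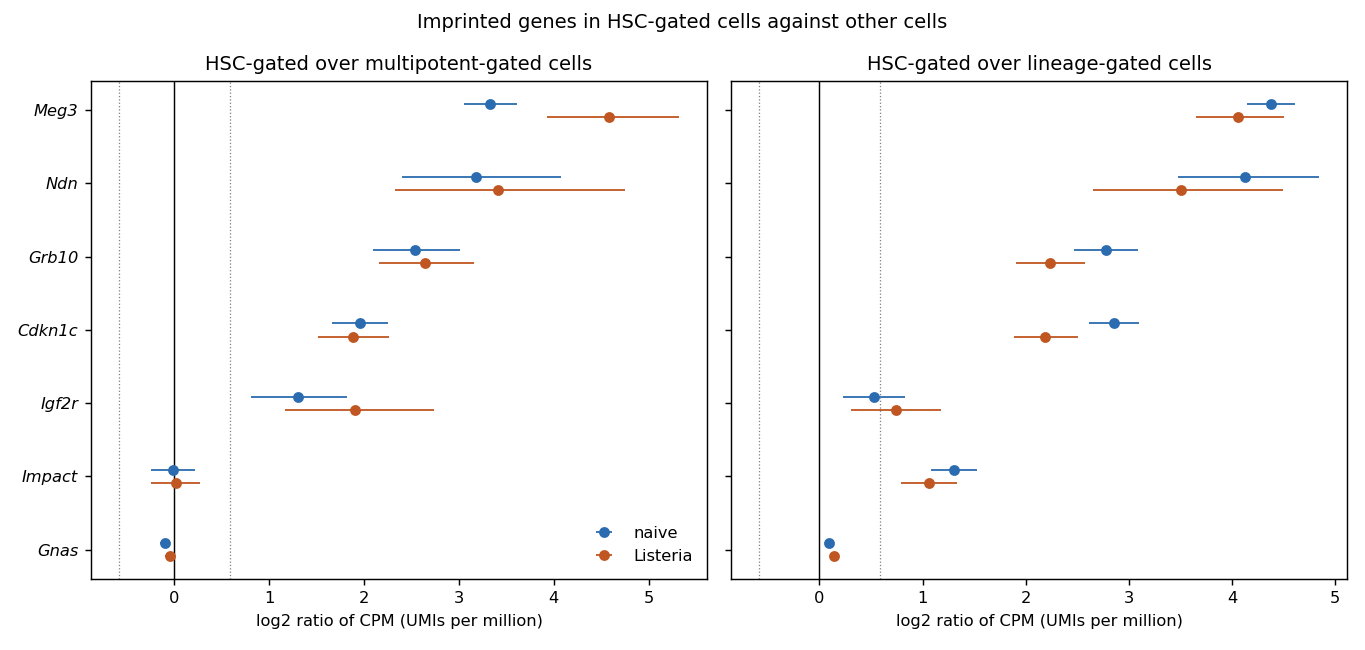
Log2 ratio of CPM in HSC-gated cells over multipotent-gated cells (left) and over all lineage-gated cells (right) for the 7 members that could be compared in each library. Points are ratios, bars exact 95% intervals and dotted lines the 1.5-fold limit; Meg3 and Ndn lie above 3 in both panels and Gnas within the limit.

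Against all lineage-gated cells together, 5 of 7 members were higher in HSC-gated cells of the naive library and 6 of 7 in the Listeria library. Meg3, Ndn, Cdkn1c, Grb10 and Impact passed in both, and Igf2r in the Listeria library alone, with a log2 difference of 0.53 (interval 0.23 to 0.83) in the naive library and 0.74 (0.30 to 1.18) in the Listeria one; the change between libraries was not tested. The background for this comparison is high, since 23.7% of 10488 genes in the naive library and 22.9% of 9835 genes in the Listeria one were higher in HSC-gated cells, and 24.2% and 17.3% were lower. The B gate made up 1408 of 2081 lineage cells in the naive library and 396 of 998 in the Listeria one, so levels are given by gate below.

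Meg3, a long noncoding RNA of the Dlk1 locus (chromosome 12, 109541001 to 109571726 on mm10, plus strand), had the largest ratio of the members compared in HSC-gated cells over multipotent and over lineage cells, in both libraries. It stood at 160 CPM (interval 153 to 167; 1939 UMIs) in HSC-gated cells of the naive library and at 78.3 CPM (73.2 to 83.5; 899 UMIs) in those of the Listeria library. In multipotent cells it stood at 16.0 and 3.27 CPM, and in lineage cells at 7.70 and 4.70 CPM. The HSC level was 10.0-fold that of multipotent cells in the naive library and 23.9-fold in the Listeria one, and 20.7-fold and 16.7-fold that of lineage cells. In the naive B gate and the naive T and NK gate the signal came from few cells. Of 97 naive B-gated UMIs, 24 lay in 1 cell. Of 23 UMIs in the naive T and NK gate, 22 lay in 1 cell. In the Listeria dendritic gate Meg3 was less concentrated, at 22.4 CPM with 17 UMIs in 8 of 86 cells and at most 4 per cell. The naive dendritic gate stood at 13.2 CPM, with 17 UMIs in 3 of 156 cells. Erythroid-gated cells of both libraries had no Meg3 UMI, which at 3 counts allows up to 5.15 and 4.57 CPM. Meg3 overlaps Gm26906 on the opposite strand, and the counting of strand is not given in the sources used here.

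Meg3 RNA was unevenly spread over HSC-gated cells. It was found in 418 of 1635 naive cells (25.6%, exact interval 23.5 to 27.8%) and in 244 of 1515 Listeria cells (16.1%, 14.3 to 18.1%). With each cell thinned to 2500 UMIs the shares were 18.3% and 11.1%, against 1.56% and 0.282% of multipotent and 0.817% and 0.701% of lineage cells. A cell with any Meg3 held 4.64 UMIs on average in the naive library and 3.68 in the Listeria one, with maxima of 40 and 28. In the naive library 72 cells held 50% of all Meg3 UMIs of the gate, and in the Listeria library 50 cells did. Barcodes with 1 to 50 UMIs carried Meg3 at 55.4 and 24.1 CPM, and with the free share of HSC-gated cells set from haemoglobin genes at 1.55% and 1.47%, free RNA came to 0.858 and 0.354 CPM of Meg3.

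**Figure D3:**
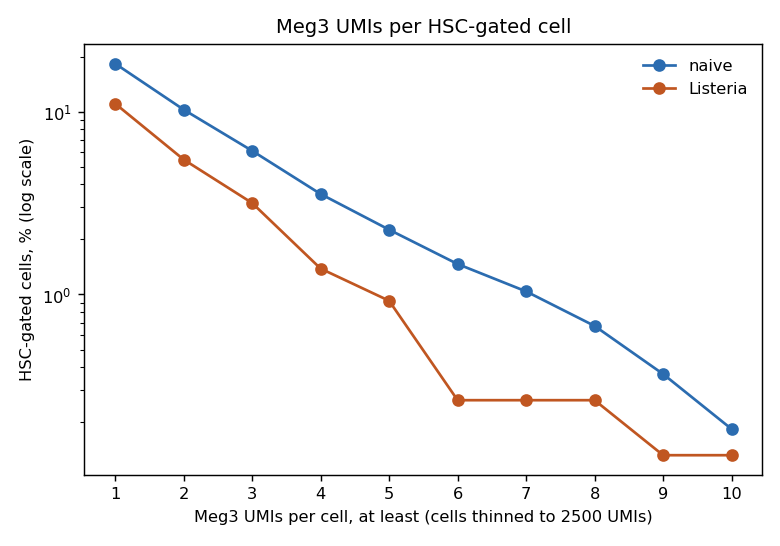
Share of HSC-gated cells (y axis, %, log scale) with at least the given number of Meg3 UMIs (x axis) after thinning each cell to 2500 UMIs, for the naive and the Listeria library. Points are shares of 1635 and 1515 cells; the naive line lies above the Listeria line at each number, 18.3% against 11.1% at 1 UMI and 2.26% against 0.924% at 5.

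Meg3 was also the only member that passed between the libraries in HSC-gated cells. Its level in the Listeria library was 0.49 times that in the naive library, a log2 difference of -1.03 (interval -1.15 to -0.92). The endothelial marker Cldn5 stood at 4.70 and 0.78 CPM on fewer than 100 UMIs, and its part in the Meg3 difference was not tested. Of the 7 members compared, 1 was lower and 0 were higher, where 2.04% of 9829 genes were lower and 6.31% higher. The median log2 difference was -0.36 over the members and 0.11 over all genes compared. Cdkn1c went from 60.2 to 44.9 CPM (log2 -0.42, -0.59 to -0.26), Ndn from 17.3 to 12.8 (log2 -0.44, -0.75 to -0.13) and Igf2r from 14.1 to 11.0 (log2 -0.36, -0.71 to -0.02). These 3 intervals lie below 0 without the ratio reaching 1.5-fold. With at most 5% mitochondrial UMIs per cell, Cdkn1c (-0.63) and Igf2r (-0.62) passed as well. Over 15 settings the difference ran from -0.63 to -0.03 for Cdkn1c and from -0.62 to -0.08 for Igf2r. For Ndn it ran from -0.57 to -0.24. Grb10 stood at 35.6 and 40.7 CPM, Gnas at 699 and 720, and Impact at 33.7 and 32.3, with log2 differences of 0.19, 0.04 and -0.06. Outside the HSC and multipotent gates, Meg3 also passed as lower in B-gated (log2 -2.01), all lineage-gated (-0.71) and ungated cells (-1.01). Its ratio was 0.62 in megakaryocyte-gated and 0.77 in dendritic-gated cells, on too few UMIs to compare and with intervals that include 0. Grb10 passed as higher in lineage-gated (0.73) and ungated cells (0.83), and Igf2r as lower in ungated cells (-0.96). Over all kept cells Meg3 was at -0.79 and Grb10 at 0.59, and both passed.

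**Figure D4:**
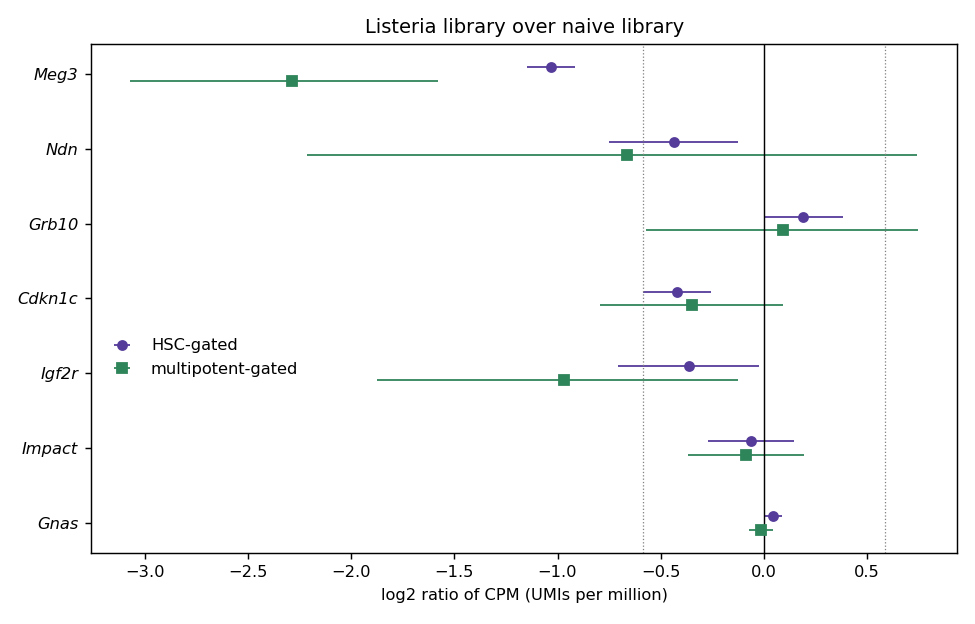
Log2 ratio of CPM in the Listeria library over the naive library (x axis) for 7 imprinted genes in HSC-gated and multipotent-gated cells. Points are ratios, bars exact 95% intervals and dotted lines the 1.5-fold limit; Meg3 is the only gene whose points in both gates lie left of the lower limit with the bar below 0 and at least 100 UMIs, and Ndn, Grb10 and Igf2r held fewer than 100 UMIs in multipotent cells.

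In multipotent cells Meg3 went from 117 UMIs in 32 naive cells to 19 UMIs in 9 Listeria cells, a log2 difference of -2.29 (interval -3.07 to -1.58). It was the 1 of 4 members compared that was lower, beside 2.69% of 8362 genes lower and 4.57% higher. A single naive cell held 23 of the 117 UMIs and 5 cells held 50%. Without the 5% of cells with the most UMIs no member passed there, and with cells thinned to 2500 UMIs before gating the Meg3 difference was 0.72 with an interval from -1.25 to 2.77.

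Within the HSC gate, each measured member but Gnas stood higher in cells with 6 to 12 HSC markers than with 3. For Meg3, Cdkn1c and Ndn the intervals lay apart in both libraries. In naive cells Meg3 was at 83.4 CPM with 3 markers, 120 with 4, 122 with 5 and 276 with 6 to 12 markers. In Listeria cells it was at 57.3, 52.9, 82.4 and 136 CPM. Cdkn1c stood at 43.3 CPM with 3 markers and 88.5 with 6 to 12 in naive cells, and at 30.5 and 64.8 in Listeria cells. Ndn stood at 8.19 and 29.8 CPM in naive and at 4.98 and 27.0 in Listeria cells. Grb10 stood at 28.1 and 42.6 CPM, and at 33.9 and 44.3. Igf2r was at 9.75 and 15.0 CPM, and at 7.47 and 16.5. Impact was at 29.6 and 37.4 CPM, and at 27.4 and 33.8. The intervals of Grb10, Igf2r and Impact overlapped, except for Grb10 in naive and Igf2r in Listeria cells. H19 had 0 and 15 UMIs, and 1 and 7. Gnas took the other direction, from 745 to 667 CPM and from 751 to 655. Cells with more markers were also deeper, with median UMIs from 6526 to 7390 in the naive library and from 6645 to 7493 in the Listeria one. The Listeria gate held 450 cells with 3 markers and 295 with 6 to 12, and the naive gate 381 and 432. Meg3 was lower in the Listeria library at each marker number, with log2 differences of -0.54, -1.18, -0.57 and -1.02, and weighting the Listeria cells to the naive mix gave -0.91.

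**Figure D5:**
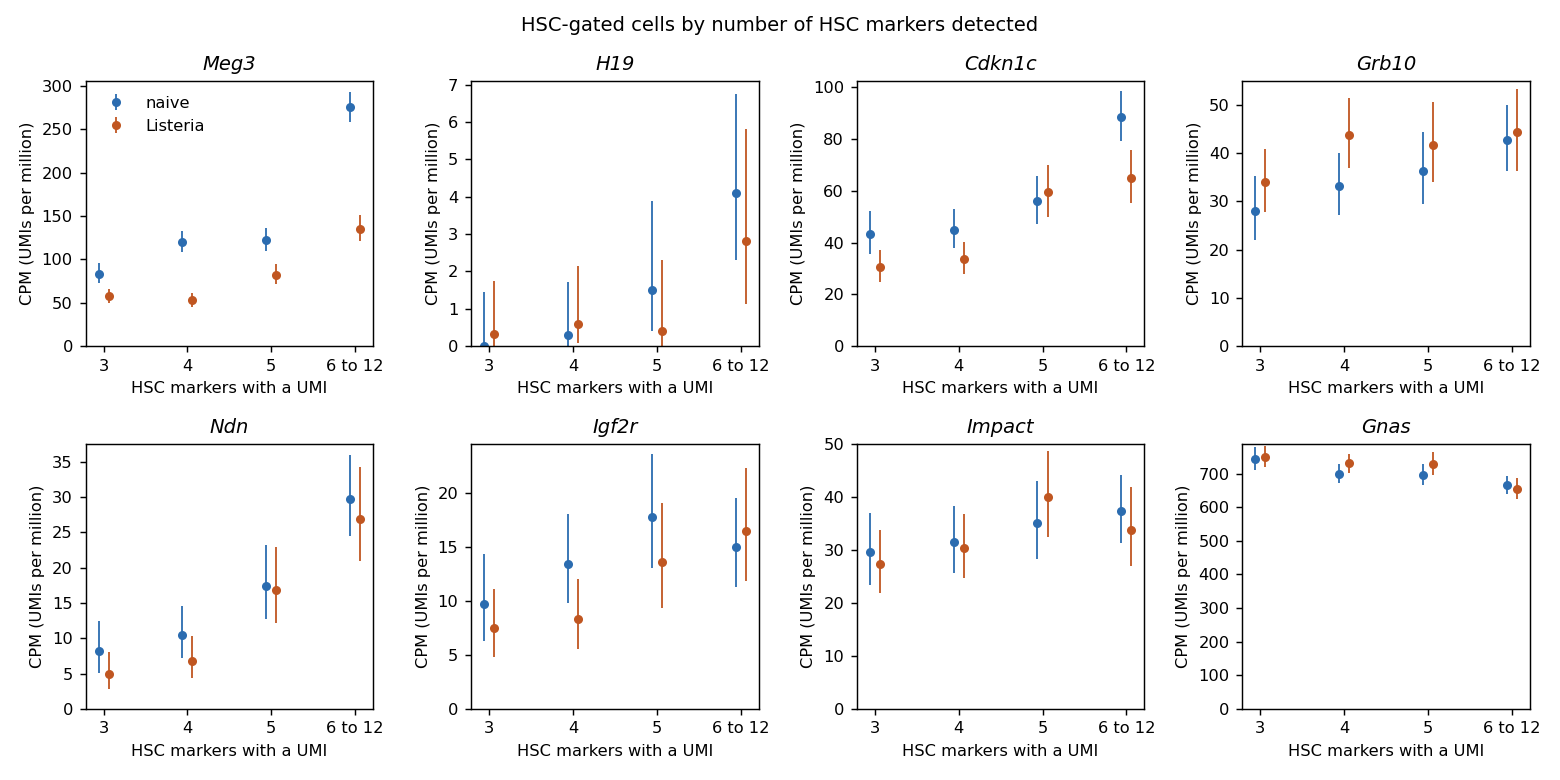
Level of each measured member in CPM (y axes, from 0) in HSC-gated cells split by the number of HSC markers with a UMI (x axes), for the naive and the Listeria library. Points are summed counts as CPM and bars exact 95% Poisson intervals. All members but Gnas stand higher at 6 to 12 markers than at 3 markers in both libraries. The bars lie apart in both libraries for Meg3, Cdkn1c and Ndn, and Gnas stands lower.

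Cells with RNA of cell division genes carried less Meg3 and Cdkn1c, and also less Ndn, Igf2r, Grb10 and Impact. By the UMIs of 20 genes of the division programme, such as Mki67 and Top2a, 1312 naive and 1151 Listeria HSC-gated cells had 0 to 1 and 323 and 364 had 2 or more. Meg3 stood at 187 and 76.3 CPM in these classes of the naive library, and at 94.1 and 42.8 CPM in the Listeria library. Cdkn1c stood at 67.1 and 39.2 CPM, and at 52.5 and 27.9 CPM. Ndn stood at 18.6 and 13.3, and at 14.9 and 8.17 CPM. Igf2r stood at 15.4 and 10.3, and at 12.2 and 8.17 CPM. Grb10 was at 38.3 and 27.5, and at 41.4 and 38.9 CPM. Impact was at 36.3 and 25.9, and at 33.9 and 28.7 CPM. Intervals of the classes overlapped for Igf2r in both libraries, for Ndn in the naive one, and for Grb10 and Impact in the Listeria one. H19 had 15 and 5 UMIs, and 11 and 0. Gnas stood at 685 and 741 CPM, and at 688 and 790 CPM. Cells with 2 or more such UMIs were deeper, with medians of 8116 and 8597 UMIs against 6606 and 6492.

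HSC-gated cells with a Meg3 UMI were compared with those without, 418 with 1217 naive cells and 244 with 1271 Listeria cells. Ndn, Cdkn1c and Igf2r were higher in cells with Meg3 in both libraries, 3 of 6 other members compared, where 2.07% of 8274 and 3.74% of 8341 genes were higher. Ndn was higher by 1.22 (interval 0.81 to 1.62) and 1.25 (0.71 to 1.77) on the log2 scale, reaching 30.2 and 25.1 CPM in cells with Meg3. Cdkn1c stood at 89.5 against 50.3 and 86.9 against 37.4, and Igf2r at 21.0 against 11.8 and 21.7 against 9.04. All 12 division genes compared in the naive library and all 14 in the Listeria library were lower in cells with Meg3, with medians of -1.64 and -2.00 on the log2 scale, where 3.25% and 7.57% of all genes were lower. Of the 12 HSC markers 5 and 6 were higher and 0 lower, and these markers define the gate. Cd34, which is low on long-term HSCs, was lower in cells with Meg3 in both, at 73.1 against 126 and 65.7 against 131 CPM. It was 1 of 5 multipotent markers compared, and the other 4 did not pass in either library; these markers define the gate as well. Median depth was 6631.5 UMIs with and 6855 without Meg3 in naive cells, and 6458.5 and 6977 in Listeria cells.

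The same genes were counted cell by cell. After thinning, Meg3 and Cdkn1c were found together in 68 naive cells, where the product of their shares gives 40.6, and in 38 Listeria cells, where it gives 18.4. Meg3 and Ndn met in 31 cells against 14.7, and in 17 against 5.54. Meg3 and Igf2r met in 15 against 10.6, and in 17 against 4.88. Meg3 and Grb10 met in 33 against 26.2, and in 19 against 17.2, and Meg3 and Impact in 32 against 24.8 and 14 against 12.9. Leaving aside Gnas, which most cells carry, 2 of the other 7 members were seen in 157 and 3 or more in 43 of 1635 naive HSC-gated cells, and in 111 and 26 of 1515 Listeria cells. In lineage cells 2 were seen in 10 of 2081 naive and 4 of 998 Listeria cells, and 3 in 0 and 2.

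H19, the noncoding RNA of the Igf2 locus (chromosome 7, 142575529 to 142578143, minus strand), was close to the limit of what these counts can show. It had 20 UMIs in 11 naive and 11 UMIs in 9 Listeria HSC-gated cells, 1.65 and 0.96 CPM. Multipotent cells had 0 and 1 UMIs, and lineage cells 6 and 0. For the groups with no UMI, the HSC level was set against a level of 3 counts over the group. It was 4.03-fold that level for multipotent cells of the naive library and 3.40-fold for lineage cells of the Listeria library. The lower ends of the exact intervals of the HSC level over these groups were 2.98-fold and 2.32-fold. Over multipotent cells of the Listeria library the HSC level was 5.57-fold, with an interval from 0.81 to 240 that includes equality. Over lineage cells of the naive library it was 5.81-fold (2.25 to 17.7). Of the 7 naive HSC-gated cells with H19 after thinning, 6 had Meg3, and of 2 Listeria cells 0 had.

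Cdkn1c, which encodes the cell cycle inhibitor p57 (chromosome 7, 143458339 to 143461050, minus strand), stood at 60.2 CPM (interval 55.9 to 64.7) in naive and 44.9 CPM (41.1 to 49.0) in Listeria HSC-gated cells. Multipotent cells had 15.6 and 12.2 CPM and lineage cells 8.32 and 9.87 CPM. It was found in 30.7% and 24.3% of HSC-gated cells, and after thinning in 13.5% and 11.0%, against 1.78% and 2.30% of lineage cells. The log2 difference to multipotent cells was 1.95 and 1.88, and that to lineage cells 2.85 and 2.19. The dendritic gate differed between the libraries, with 8.52 CPM (11 UMIs) in the naive library and 35.5 CPM (27 UMIs in 11 of 86 cells) in the Listeria one, where a single cell held 10 of the 27 UMIs. The summed HSC markers of that gate stood at 226 and 379 CPM, and their part in the difference was not tested.

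Of the kin of Cdkn1c, both of them cell cycle inhibitors, Cdkn1a took its direction in these comparisons and Cdkn1b did not. Cdkn1a, which encodes p21, was at 561 CPM in naive and 281 CPM in Listeria HSC-gated cells (log2 interval -1.06 to -0.94), and it also passed as higher in HSC-gated than in multipotent cells, by 0.61 and 0.65. Cdkn1b, which encodes p27, was at 65.1 and 83.0 CPM (log2 0.35, 0.21 to 0.49) and did not pass between the libraries or against multipotent cells. Against lineage cells Cdkn1b was lower in the naive library (log2 -1.15).

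Grb10 encodes an adaptor that dampens signalling from the insulin and IGF1 receptors (chromosome 11, 11930508 to 12038683, minus strand). It stood at 35.6 CPM (interval 32.3 to 39.1) in naive and 40.7 CPM (37.0 to 44.5) in Listeria HSC-gated cells, against 6.14 and 6.54 CPM in multipotent cells, which is 5.80-fold and 6.22-fold. Erythroid-gated cells held it as well, at 44.7 CPM (29.2 to 65.5; 26 UMIs) and 35.1 CPM (22.2 to 52.6; 23 UMIs). Megakaryocyte-gated cells had 22.3 and 22.3 CPM and B-gated cells 2.62 and 1.22 CPM. The levels of the HSC and erythroid gates overlap in their intervals in both libraries. With the lineage gates weighted equally, the log2 difference between HSC-gated and lineage cells moved from 2.78 to 1.77 in the naive library and from 2.23 to 1.91 in the Listeria one. Over all settings it ran from 1.77 to 4.70 and from 1.91 to 5.42, with the upper ends under thinning to 2500 UMIs before gating.

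Igf2r encodes the receptor that carries IGF2 and lysosomal enzymes into the cell for breakdown or sorting (chromosome 17, 12682406 to 12769664, minus strand). It stood at 14.1 CPM (interval 12.1 to 16.4) and 11.0 CPM (9.14 to 13.1) in HSC-gated cells and at 5.73 and 2.92 CPM in multipotent cells. HSC-gated cells were not its highest group. Erythroid-gated cells stood at 24.1 CPM (13.2 to 40.4; 14 UMIs) in the naive library and at 3.05 CPM (2 UMIs) in the Listeria one. T and NK cells of the naive library stood at 35.5 CPM (22.0 to 54.3; 21 UMIs), above the HSC interval, and those of the Listeria library at 19.4 (7.12 to 42.3; 6 UMIs), which overlaps it. Neutrophil-gated cells had 18.9 and 16.6 CPM, overlapping the HSC intervals. Airn, the noncoding RNA that runs across Igf2r on the opposite strand, had 70 and 59 UMIs in HSC-gated and 3 and 3 in multipotent cells. Where they overlap, reads of Airn and Igf2r can be told apart only with strand.

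Ndn encodes necdin, a growth suppressor studied in neurons and in HSCs (chromosome 7, 62346569 to 62350262, plus strand). It stood at 17.3 CPM (interval 15.0 to 19.8; 210 UMIs) in naive and 12.8 CPM (10.8 to 15.0; 147 UMIs) in Listeria HSC-gated cells. Multipotent cells had 14 and 7 UMIs, 1.91 and 1.20 CPM, so that the HSC level was 9.07-fold (5.29 to 16.9) and 10.6-fold (5.03 to 26.9) higher. Lineage cells together had 0.99 and 1.13 CPM. Megakaryocyte-gated cells had 4.05 and 4.16 CPM (6 and 8 UMIs) and dendritic-gated cells 4.64 and 3.95 CPM (6 and 3 UMIs). These levels lay above those of multipotent cells, with intervals that overlap. Erythroid, T and NK and myeloid progenitor cells had no UMI in either library. Among these gates the highest upper end of an exact interval was 11.9 CPM, in Listeria T and NK cells. It overlaps the interval of Listeria HSC-gated cells. Ndn overlaps Gm32061 on the opposite strand.

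Impact and Gnas stood near the same level in HSC-gated and multipotent cells. Impact encodes an inhibitor of GCN2, the kinase that slows translation when amino acids are short (chromosome 18, 12955852 to 12992950, plus strand), and stood at 33.7 and 32.3 CPM in HSC-gated and at 34.0 and 32.0 CPM in multipotent cells. The log2 difference was -0.01 (interval -0.24 to 0.22) and 0.01 (-0.24 to 0.28). B-gated cells had 11.3 and 10.3 CPM and neutrophil-gated cells 12.1 and 9.24 CPM. Other gates stood nearer the HSC level. Dendritic-gated cells had 27.9 and 35.5 CPM, T and NK cells 30.4 and 25.9, and myeloid progenitor cells 24.1 and 24.4. Their intervals overlap those of HSC-gated cells in both libraries. Gnas encodes the stimulatory G protein subunit that couples receptors to cyclic AMP (chromosome 2, 174284320 to 174346744, plus strand), and it was found in 98.2% and 97.5% of HSC-gated cells. It stood at 699 and 720 CPM there, at 750 and 741 CPM in multipotent cells, highest in megakaryocyte-gated cells (915 and 894 CPM) and lowest in neutrophil-gated cells (395 and 399 CPM). Transcripts of the Gnas locus share their last exons, so tags from the end of the RNA do not tell its imprinted and biallelic forms apart, and Nespas and Gm20721 overlap it on the opposite strand.

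Across 20 groups, each a gate in 1 library with at least 30 cells, the genes most like each member were ranked by Pearson's r of log2(CPM + 5) among 5318 genes. These r values are descriptions, since the groups share libraries and gates. Plxdc2 was most like Meg3 (0.86) and Ndn (0.85) and among the 3 most like Cdkn1c (0.84). Meg3 was followed by Skil (0.83) and Bex1 (0.82), Cdkn1c by Exoc6b (0.86) and Samd4b (0.84), and Ndn by Bex1 (0.84) and Tsc22d2 (0.81). Grb10 was most like Aldh1a1 (0.93), Apoe (0.90) and Bex4 (0.90). Impact was most like Gm26532 (0.92), Runx2 (0.91) and Cd27 (0.90), and Gnas like Trim44 (0.90), Ppfia1 (0.88) and Tmem57 (0.88). Igf2r had no close match, with 0.63 for Lars2, 0.61 for Ccpg1 and 0.60 for Xdh, and for the sparse H19 Camk2n1 (0.69), Etv3 (0.61) and Lars2 (0.60) came first. Among members, Meg3 had r of 0.85 with Cdkn1c, 0.82 with Ndn, 0.31 with Grb10 and 0.18 with Igf2r.

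Of 53 other imprinted genes listed, 51 had a row and 24 could be compared between libraries in HSC-gated cells. Slc22a3, a transporter gene 174.7 kb from Igf2r, was higher in the Listeria library (25.6 and 39.0 CPM, log2 0.61, interval 0.39 to 0.82), and Phlda2, a growth-restraining gene 40.5 kb from Cdkn1c, was lower (27.3 and 17.1 CPM, log2 -0.68, -0.94 to -0.42). The other 22 did not pass, and the list's median was 0.01. The highest of the list in HSC-gated cells were Cd81 (245 and 235 CPM), Kcnq1ot1 (232 and 255), H13 (143 and 148), Nap1l4 (123 and 145), Ppp1r9a (86.8 and 77.6) and Ube3a (77.0 and 104). Between HSC-gated and multipotent cells 6 of 21 were higher in the naive library and 6 of 20 in the Listeria one, where 9.27% and 8.6% of all genes were. Zdbf2, Sgce, Ppp1r9a, Phlda2 and Htr2a passed in both, with Slc22a18 in the naive library and Plagl1 in the Listeria one; most of them are named here after their values were seen. Slc22a3 was the 1 lower gene in each, by -0.86 and -0.60. Against lineage cells 15 of 23 and 11 of 20 were higher, and 2 and 1 lower, where 23.7% and 22.9% of all genes were higher and 24.2% and 17.3% lower.

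Dlk1, Mirg and Igf2, which lie beside members at their loci, were scarce. Dlk1, the coding gene 77.7 kb from Meg3 that is read from the paternal copy, had 79 and 61 UMIs in HSC-gated cells, 4 and 1 in multipotent and 14 and 2 in lineage cells. Mirg, a noncoding RNA downstream of Meg3, had 15 and 10 UMIs in HSC-gated cells against 1 and 0 in multipotent cells. Igf2, 72.6 kb from H19, had 3 and 1 UMIs in HSC-gated cells. Of 10 genes that keep imprints, 8 could be compared between the libraries in HSC-gated cells and Uhrf1, which guides the maintenance methyltransferase to newly made DNA, was higher in the Listeria library (12.7 and 19.5 CPM, log2 0.62), as were 6.31% of all genes. The summed genes of the division programme stood at 316 CPM in the naive gate and 445 CPM in the Listeria one, and their part in the Uhrf1 value was not tested. Of 13 genes of IGF signalling, among them the members Grb10 and Igf2r, 8 could be compared there, and Igf1 was lower (7.42 and 3.31 CPM, log2 -1.17), as were 2.04% of all genes. Between HSC-gated and multipotent cells 4 of 7 IGF genes were higher in the naive library and 5 of 7 in the Listeria one, Grb10 and Igf2r among them in both, where 9.27% and 8.6% of all genes were higher. Igfbp4, an IGF-binding protein, was the 1 lower gene in both.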

How the data were processed

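The authors deposited raw UMI counts per gene and barcode for every barcode of 2 libraries, not normalized; per the submitters' processing notes they ran Cell Ranger 3.0.2 on mm10, and per the labels' protocols libraries came from a 10x Genomics kit for transcript ends. Total counts were 64619150 in the naive library and 43895966 in the Listeria one, of which kept cells held 78.6% and 89.4%. Of 6600 and 4910 barcodes with at least 2500 UMIs, 9 and 17 were removed for few genes and 216 and 54 for mitochondrial counts. No doublet caller was run; 185 and 92 cells passed several lineage gates and went to the one with most UMIs.

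The members and gene lists were chosen with earlier results of these data known, and gate thresholds after marker counts were seen. Counts were summed over the cells of a gate, scaled to CPM and compared as log2 ratios with exact binomial-split intervals; levels have exact Poisson intervals and shares Clopper-Pearson ones, all at 95%. No test was run because each group is 1 library. Named genes are all members, per member the 3 genes with the highest r (genes with at least 50 CPM in a group; members, gate markers, mitochondrial and ribosomal genes left out), the other imprinted genes past the limit between libraries in HSC-gated cells and the 5 with the highest CPM there in each library (6 in all), Dlk1, Mirg and Igf2, and Cdkn1a and Cdkn1b. Airn, Uhrf1, Igf1, Igfbp4, Cd34, Cldn5, Cdh5, Zdbf2, Sgce, Htr2a, Plagl1 and Slc22a18 were chosen after their values were seen. On simulated counts for the Listeria comparison in HSC-gated cells (9829 genes), 99% of genes changed 2-fold, 100% changed 3-fold and 0.353% of unchanged genes were called. The simulated counts were Poisson draws, the error the intervals assume, with no spread between cells, mice or libraries. They therefore do not give the rate of false calls between real libraries.

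Alternatives were 1 more or 1 fewer marker UMI for the HSC gate, thinning before gating, at least 5000 UMIs, at most 5% mitochondrial UMIs, no cells of the top 5% by UMIs, means over cells, free RNA subtracted, edgeR (4.0.16) TMM and DESeq2 (1.42.0) factors on summed counts, other count minimums and a 2-fold limit; 3 more (equal weight for lineages, the naive mix of marker numbers, no shared barcodes) were chosen after seeing the data. Gene positions are from GENCODE vM21, which matched 30934 of 31053 identifiers. Python 3.11.15, numpy 2.4.6, scipy 1.17.1 and pandas 2.3.3 were used.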

Additional observations from a re-analysis of the deposited data

Results flagged for a closer look

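Cdkn1c differed in direction between gates. The log2 ratio of the Listeria over the naive library was 2.06 (interval 1.00 to 3.22; 27 and 11 UMIs) in the dendritic gate, where it was -0.42 in the HSC gate and -0.32 in cells with no gate. The difference between the gates was not tested, and the dendritic gate held fewer than 100 UMIs of Cdkn1c. A single cell held 10 of its 27 UMIs in the Listeria library.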

How the results depend on the processing

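Of 164 counts of members past the limit under the alternatives, 155 stayed within 1.5 times the main count. Of 611 log2 ratios of members under the alternatives, 57 moved beyond their main interval and 1 changed sign after having passed; 28 of the 57 and that 1 arose under thinning before gating. Over multipotent cells the naive Meg3 ratio ran from 3.20 to 5.04 and the Listeria Ndn ratio from 1.84 to 3.58, and over lineage cells the Listeria Cdkn1c ratio of 2.19 rose to 4.27 under thinning. In HSC-gated cells 3 members in place of 1 were lower in the Listeria library with at most 5% mitochondrial UMIs (1283 and 1330 cells). Thinning cells to 2500 UMIs before gating left 565 and 482 HSC-gated cells, so fewer members reached 100 UMIs: 2 and 1 were then higher than in multipotent cells, 3 and 1 higher than in lineage cells, and 0 lower between libraries in multipotent cells. In multipotent cells the count was also 0 without the 5% of cells with the most UMIs, and 2 with a minimum of 30 UMIs or none. The Meg3 ratio between libraries in multipotent cells turned to 0.72 under thinning, on few UMIs; the cause was not tested. In HSC-gated cells the Meg3 log2 ratio ran from -1.20 to -0.69 over 15 settings. TMM and DESeq2 factors gave -1.15 and -1.16, and under them Gnas went from 0.04 to -0.07 and -0.09, within the limit. No paired analysis was possible because each group has 1 library and the groups share fewer than 2 replicate numbers, and for the same reason no library could be left out.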
